A study of Bos taurus with 8 samples.

Results

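The cell cycle and DNA replication genes described here are 159 genes of a bovine embryo array, chosen by a rule on their symbols. They comprise the cyclins, the cyclin-dependent kinases (CDK) and genes named after them, the CDC genes except CDC42, the MCM, ORC, GINS, RFC and replicative polymerase genes, the E2F factors, the PLK, AURK and BUB genes, the CENP genes, and PCNA, STMN1, TOP2A and MKI67. They are 159 of 15229 genes with a symbol on the array and are covered by 261 probes. Each gene was represented by the probe with the highest mean intensity, and 10 members have since been renamed (CDC2L1 is CDK11B, CDC45L is CDC45, CENPC1 is CENPC, ORC1L to ORC6L are ORC1 to ORC6, and PLK1S1 is KIZ).

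Inner cell mass (ICM) was compared with trophectoderm (TE), the outer epithelium of the blastocyst that goes on to form the placenta. Both tissues came from expanded blastocysts flushed at day 7.5 post insemination from superovulated Holstein cows, and no treatments were compared. The embryos were cut by microscalpel into a TE fragment and a fragment holding ICM with TE, from which the TE cells were then lysed by antiserum and complement. Embryos were pooled into 4 pools per tissue, and the amplified RNA of each pool pair was hybridised on 2 two-color arrays with the dyes swapped, which gave 8 arrays. Nothing in the sources ties a pool to particular cows, so the p-values reflect only how these 4 pool pairs varied. In pooled tissue RNA, a smaller number of cells of one type and less RNA per cell cannot be told apart.

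Markers ran against the tissue labels of the channels. Of 10 epiblast markers, 8 were lower and none higher in ICM-labelled RNA, among them NANOG (log2 fold change -3.50), and 3 of 5 measured hypoblast markers were lower too, while 13 of 14 trophoblast markers were higher. Their summed levels, on the log2 scale, were 14.2 to 14.6 in ICM-labelled RNA and 15.8 to 16.2 in TE-labelled RNA for the epiblast list, with no overlap. For the hypoblast list they were 12.1 to 13.1 in ICM-labelled RNA and 14.5 to 14.9 in TE-labelled RNA, and for the trophoblast list 17.5 to 17.7 in ICM-labelled RNA and 16.6 to 16.8 in TE-labelled RNA, again without overlap. For 6 blood and immune markers the sums overlapped (10.7 to 12.5 in ICM-labelled RNA and 10.7 to 12.4 in TE-labelled RNA) and none was called. Directions below follow the dye labels and are mostly opposite to those of the study, and they are therefore given for ICM-labelled RNA and TE-labelled RNA. If the labels of the channels were exchanged, every sign would turn and every size and p-value would stay. The part of these cell type markers in the results was not tested.

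A dividing cell passes through the cycle under the control of cyclin-dependent kinases, each of which works only when bound to a cyclin. In G1 phase the origin recognition complex (ORC) marks replication origins and the ring of MCM2 to MCM7 is loaded on them; in S phase this ring, with CDC45 and the GINS complex, becomes the helicase that opens the DNA, and PCNA holds the polymerases on the template. In mitosis the polo-like and Aurora kinases, the BUB checkpoint proteins and the CENP proteins of the kinetochore govern the separation of the chromosomes. Early embryos begin with a large maternal store of the transcripts of this machinery. Several names of the same form belong to genes with other tasks, such as the CDKs that phosphorylate RNA polymerase II during transcription.

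STMN1 and PLK2 were the members with the strongest change in level between ICM-labelled RNA and TE-labelled RNA, and both were also measured in the study by RT-qPCR. The directions given for them below follow the dye labels and are opposite to the direction the RT-qPCR gave. The primers of that assay, which are the designed sequences that identify both transcripts, are given here 5′ to 3′.
STMN1 forward: aagctgcagaggaaagacgcaa
STMN1 reverse: aacatcagggcaggcatcactt
PLK2 forward: tctacctccttcagtggctaa
PLK2 reverse: ccatagggtccgttcaagaaa

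Across the members, 31 were lower and 9 higher in ICM-labelled RNA at an adjusted p of 0.05 or less, while 119 were not called. These are 19.5% lower and 5.66% higher, against 6.85% lower and 8.69% higher of all 15229 genes with a symbol (15.5% in either direction). The members therefore held a larger share of lower calls than the array as a whole and a smaller share of higher calls. At an adjusted p of 0.01 the counts were 7 lower and 2 higher, beside 1.92% and 3.35% of all genes (5.27% in either direction, and 3.27% of all probes). The levels of the 4 pools did not overlap for 33 members that were lower and 8 that were higher, where 8.70% and 9.15% of all genes were so separated. Among the 139 members above the control limit (the mean plus 2 SD of the negative control spots) on at least 8 of 16 channels, 22.3% were lower and 6.47% higher, against 10.0% and 12.7% of the genes that met the same condition. Of the members, 20 lay under that condition and 5 were above the limit on no channel.

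Most changes were of moderate size. The log2 fold changes of the 31 lower members ran in size from 0.16 to 2.96 with a median of -0.58, and 6 passed 2-fold; those of the 9 higher members ran from 0.19 to 1.08 with a median of 0.32, and 1 passed 2-fold. Over all 159 members the median log2 fold change was -0.03, against 0.01 over all genes, with 93 members negative where 44.6% of all genes were. A log2 fold change at or below -0.5 was measured for 15.1% of the members and 5.33% of all genes. All 31 lower and all 9 higher members had the same sign in all 4 pool pairs, and 27 and 8 of them on all 8 arrays. The calls were made on these same ratios, which favours a shared sign, so this agreement is no separate support. The number of calls depended on which pool pair was left out. Without pool pair 1, 2, 3 or 4 the lower calls numbered 29, 23, 14 and 9, and the higher calls 8, 2, 4 and 5. Over all probes the calls fell too, to 3973, 2452, 2072 and 2425, against 4711 with all 4 pool pairs. Single genes below also lost calls when a pool pair was left out. Whether those losses go beyond the fall over all probes was not tested. Fitting the 8 arrays one by one, with pool pair as a blocking term, the lower and higher calls numbered 48 and 14. Over all probes that fit gave 7975 calls (7304 with a dye term). The correlation estimated for that block was 0.0357, so the fit treated the arrays of one pool pair almost as separate replicates; with a dye term it was 0.438 and the counts were 46 and 12. Median centring instead of loess left 3 and 1, while over all probes the calls fell to 333, against 4711 with loess.

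**Figure D1:**
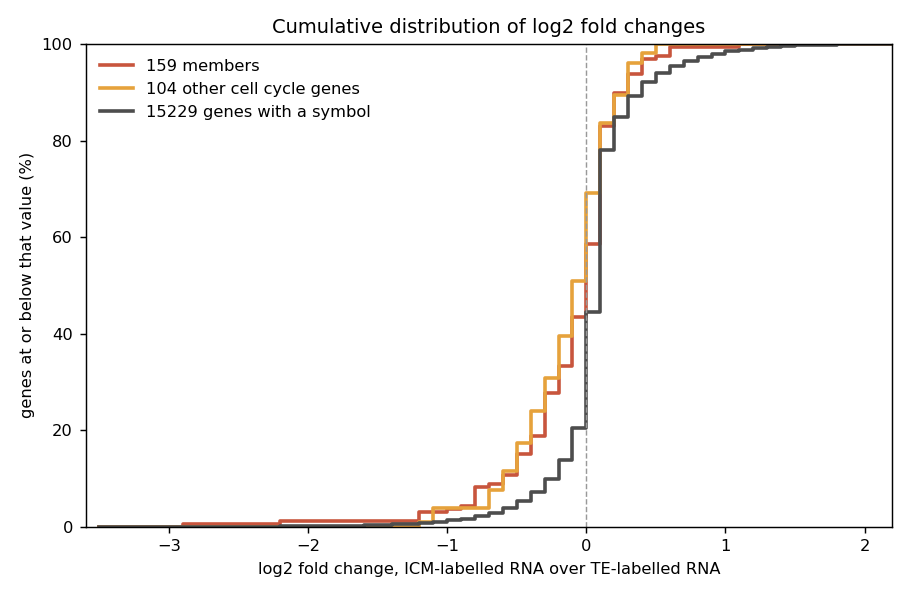
Cumulative share of genes (%) at or below each log2 fold change of ICM-labelled RNA over TE-labelled RNA, for the 159 members, 104 other cell cycle genes and all 15229 genes with a symbol. At -0.5 the curves stand at 15.1%, 17.3% and 5.33%.

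**Figure D2:**
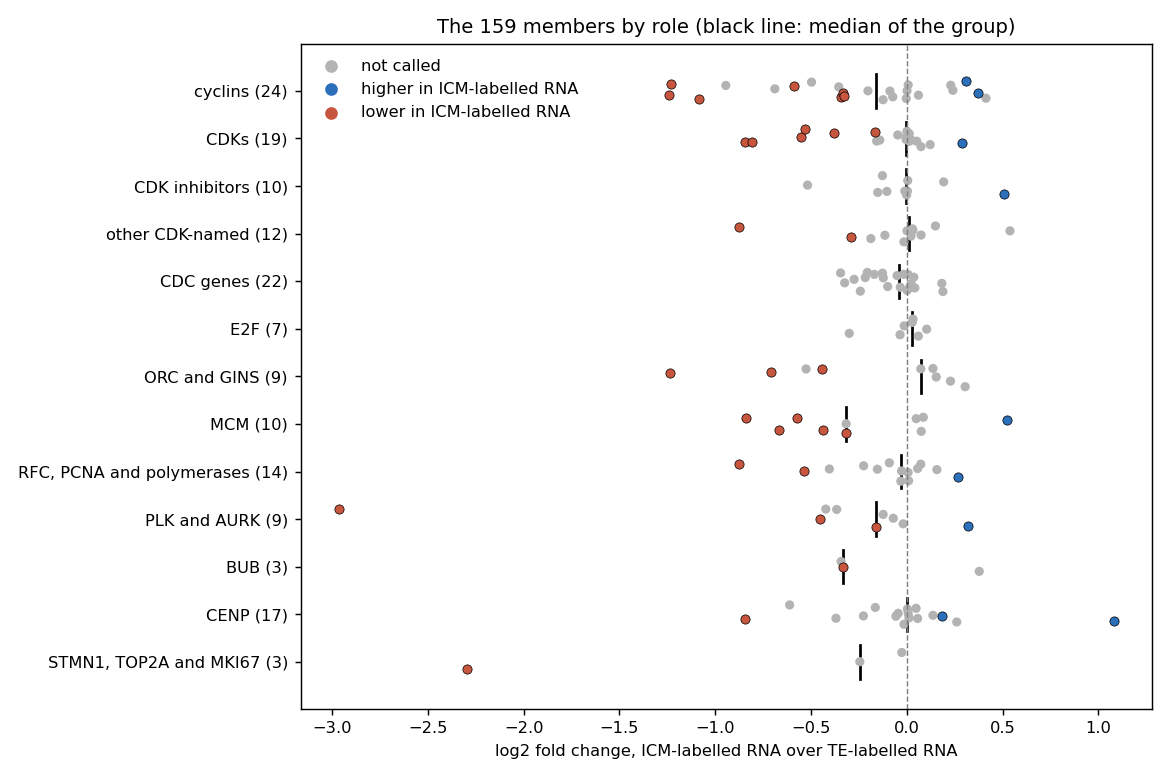
Log2 fold change of ICM-labelled RNA over TE-labelled RNA for each of the 159 members, grouped by role, with called members marked. The lower calls reach to -2.96 (PLK2), and the 22 CDC genes and the 7 E2F genes hold no call, where 15.5% of all genes were called.

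The 2 largest differences belonged to a kinase and a microtubule regulator. PLK2, a polo-like kinase active in early G1 and in centriole duplication, had log2 levels (normalized log2 intensity, mean of the 2 arrays of a pool) of 9.24, 9.60, 9.75 and 9.57 in ICM-labelled RNA and 13.41, 12.40, 12.09 and 12.11 in TE-labelled RNA. Every pool labelled ICM lay below every pool labelled TE, and ICM-labelled RNA was 7.79-fold lower (log2 fold change -2.96, SE 0.33, adjusted p = 0.0117). The adjusted p of PLK2 was 0.0503 without pool pair 2 and 0.0591 without pool pair 4. STMN1 encodes stathmin, which destabilises microtubules and is phosphorylated at mitosis. Its log2 levels were 11.49, 12.05, 11.79 and 11.42 in ICM-labelled RNA and 14.51, 14.01, 13.88 and 13.54 in TE-labelled RNA. The pools did not overlap, all 3 probes of STMN1 passed, and the level was 4.92-fold lower (log2 fold change -2.30, SE 0.20, adjusted p = 0.0063). TOP2A, the topoisomerase that untangles replicated chromosomes, had -0.24 (adjusted p = 0.178) and MKI67, the proliferation antigen Ki-67, had -0.03 (adjusted p = 0.690), and neither was called.

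**Figure D3:**
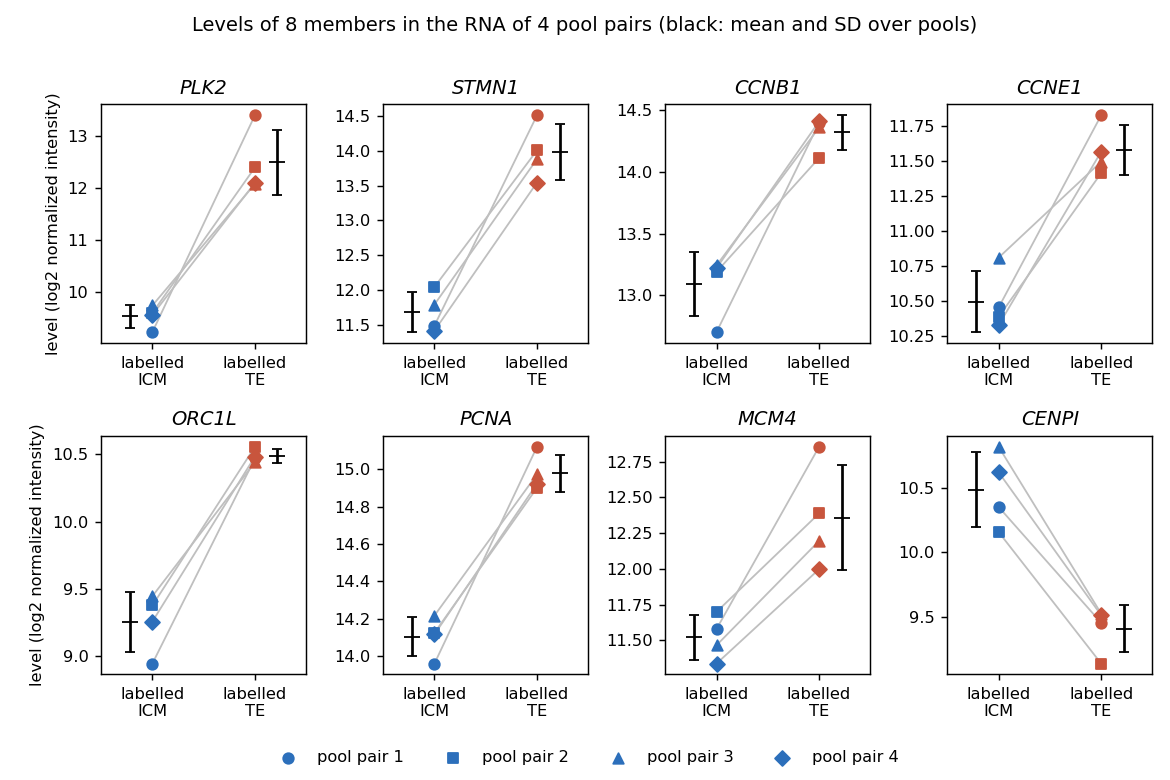
Normalized log2 level (mean of 2 arrays) of 8 members in each of the 4 pools labelled ICM (left) and the 4 pools labelled TE (right), with lines joining pool pairs and black bars for the mean and SD over pools. In the 7 members that were lower, among them PLK2 and STMN1, no pool labelled ICM reached the lowest pool labelled TE; CENPI ran the other way.

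Of 24 genes with symbols that begin with CCN, 7 were lower (29.2%) and 2 higher (8.33%) in ICM-labelled RNA. Of all genes 6.85% were lower and 8.69% higher, and the median log2 fold change of the 24 was -0.16. The 24 are the cyclins and genes named after them, such as CCNB1IP1, which is among the 7. CCNB1, the cyclin that drives entry into mitosis, had log2 levels of 12.70, 13.19, 13.24 and 13.22 in ICM-labelled RNA and 14.40, 14.11, 14.36 and 14.41 in TE-labelled RNA. These ranges were well apart, and CCNB1 was 2.35-fold lower (log2 fold change -1.23, SE 0.13, adjusted p = 0.0108). CCNE1, which acts with CDK2 at the start of S phase, had 10.45, 10.39, 10.81 and 10.33 in ICM-labelled RNA and 11.83, 11.41, 11.50 and 11.57 in TE-labelled RNA, and was likewise separated (log2 fold change -1.08, SE 0.12, adjusted p = 0.0118). CCNB1IP1, a ubiquitin ligase that binds cyclin B1 and acts in meiotic recombination, was lower by a similar amount (-1.24, SE 0.14, adjusted p = 0.0112). Without pool pair 4 the adjusted p was 0.0632 for CCNB1, 0.0671 for CCNE1 and 0.0600 for CCNB1IP1. It was 0.0507 for CCNB1 without pool pair 3 and 0.0511 for CCNE1 without pool pair 2.

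Related cyclins were not called. Their log2 fold changes were 0.23 for CCNE2 (adjusted p = 0.136), -0.36 for CCNB2 (0.110) and -0.20 for CCNA2 (0.0767). CCNA1, known in mammals mainly from the germ line, was called lower (log2 fold change -0.33, 1.26-fold, adjusted p = 0.0146). It exceeded the control limit on 0 of 8 channels labelled ICM, so the size of this difference is uncertain. Of the D cyclins, which answer to growth signals in G1, CCND2 had 12.41, 12.54, 12.48 and 12.32 in ICM-labelled RNA and 11.77, 12.06, 12.06 and 12.21 in TE-labelled RNA. The pools of CCND2 did not overlap, but the test did not pass (log2 fold change 0.41, adjusted p = 0.0625). With pool pair blocking its adjusted p was 0.00402 (0.00676 with a dye term), in fits of single arrays that raised the calls over all probes as well. CCND1 was above the limit on 1 of 8 channels of each label, and CCND3 had a log2 fold change of 0.06. CCNG1, a p53 target, was just inside the threshold (-0.33, SE 0.07, adjusted p = 0.0487), and no values with a pool pair left out are given for it. Among 9 cyclins of the A, B, D and E types, 3 were thus called, all of them lower, where 6.85% of all genes were lower.

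Several of the called cyclins and kinases act in transcription, and they are described as a set that was put together after the values were seen. All 5 of CDK7, CDK8, CDK9, CDK12 and CDK13 were lower in ICM-labelled RNA. With CDK19 and the cyclins CCNC, CCNH, CCNK, CCNT1 and CCNT2 they form a set of 11, of which 7 were lower and 1 higher, where 6.85% and 8.69% of all genes were; as the set was drawn up from called members, this count is a description only. CDK13, which phosphorylates RNA polymerase II during elongation, had log2 levels of 11.20, 11.41, 11.74 and 11.71 in ICM-labelled RNA and 11.88, 12.14, 12.57 and 12.69 in TE-labelled RNA. The pools did not overlap, and CDK13 had the smallest adjusted p of the lower kinases (log2 fold change -0.81, SE 0.06, adjusted p = 0.0045). CCNK, the partner of CDK12 and CDK13, was lower as well (-0.35, adjusted p = 0.0164). CCNC, the partner of CDK8 in the Mediator complex, had 9.94, 10.11, 9.98 and 10.25 in ICM-labelled RNA and 10.54, 10.74, 10.49 and 10.88 in TE-labelled RNA, and the log2 fold change was -0.59 for CCNC (adjusted p = 0.0026) and -0.55 for CDK8 (adjusted p = 0.0218).

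CDK7, which activates other CDKs and is part of the transcription factor TFIIH, was separated between pools, with 11.44, 11.65, 11.34 and 11.45 in ICM-labelled RNA and 12.47, 12.11, 12.37 and 12.30 in TE-labelled RNA (log2 fold change -0.84, SE 0.11, adjusted p = 0.0170). Its own cyclin ran the other way. CCNH had 10.87, 11.05, 10.98 and 11.14 in ICM-labelled RNA and 10.58, 10.57, 10.70 and 10.70 in TE-labelled RNA, and was higher (0.37, SE 0.05, adjusted p = 0.0142). CDK9, the elongation kinase of P-TEFb, was lower by 0.53 on the log2 scale (adjusted p = 0.0478), while its cyclins CCNT1 and CCNT2 lay near the control limit and were not called. For CDK12 the direction was carried by one dye orientation. Its log2 ratios were 0.00, 0.02, -0.17 and -0.09 on the arrays with ICM in Cy5 and -0.70, -0.51, -0.79 and -0.80 on those with ICM in Cy3, and with pool pair blocking its adjusted p was 0.0556, or 0.000555 with a dye term added. In each of CDK7, CDK8, CDK9, CDK12, CDK13 and CCNC only 1 of the gene's several probes passed. The second probe of CDK7 had a log2 fold change of -0.20 and that of CDK9 of -0.01. The other probes had 0.09 and -0.28 for CDK12, -0.11 and -0.04 for CDK13, and -0.12 and -0.12 for CCNC. For CDK8 they had -0.11, -0.26 and 0.02. Without pool pair 3 or 4 the adjusted p was 0.0709 and 0.0898 for CDK7 and 0.0597 and 0.0701 for CDK12, and CCNH had 0.0518 without pool pair 2 and 0.0673 without pool pair 4. Such values are not given for CDK8, CDK9 and CCNK.

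Of the 4 kinases that move the cycle itself, CDK1, CDK2, CDK4 and CDK6, 1 was called, where 15.5% of all genes were. CDK1, the mitotic kinase bound by cyclin B1, was not called (log2 fold change 0.12, adjusted p = 0.646), nor were the G1 kinases CDK4 and CDK6 at -0.14 and 0.00. CDK2 was called lower at a small size (-0.17, SE 0.02, adjusted p = 0.0179), and it lost the call when all 3 of its probes were averaged (log2 fold change -0.05, adjusted p = 0.326) and without pool pair 2, 3 or 4 (adjusted p 0.0573 to 0.0953). CDK14, which binds cyclin Y at the cell membrane, was higher, with 8.45, 8.55, 8.49 and 8.47 in ICM-labelled RNA and 8.15, 8.27, 8.19 and 8.19 in TE-labelled RNA (log2 fold change 0.29, SE 0.02, adjusted p = 0.0043). Its cyclin CCNY was higher by nearly the same amount (0.31, SE 0.06, adjusted p = 0.0353), although CCNY lost its call without pool pair 2, 3 or 4 (adjusted p 0.0885 to 0.119).

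Direct inhibitors of the kinases gave no call. Of the 7 CDKN1 and CDKN2 genes, none passed and 3 were above the control limit on fewer than 8 of 16 channels. For so few genes, no call lies near the 15.5% of all genes that were called. CDKN1A, the p53 target p21, had the largest log2 fold change of them at -0.52 (adjusted p = 0.252). CDKN3, a phosphatase that acts on CDK2, was higher in ICM-labelled RNA (0.51, SE 0.06, adjusted p = 0.0137), with 1 of its 3 probes passing, and its adjusted p was 0.0625 without pool pair 2 and 0.0737 without pool pair 4. Of 12 other genes with CDK in their name, the kinase CDKL2 (-0.88, SE 0.11, adjusted p = 0.0146) and the CDK2-binding protein CDK2AP1 (-0.29, SE 0.06, adjusted p = 0.0464) were lower. These are 16.7% of the 12 genes, and none was higher, against 6.85% lower and 8.69% higher of all genes. CDKL2 lost its call without pool pair 3 or 4 (adjusted p = 0.0655 and 0.0809), and CDK2AP1 with any one pool pair left out (0.0667 to 0.168). The second probe of CDK2AP1 had a log2 fold change of 0.08 and did not pass.

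The MCM ring was lower almost throughout. Of MCM2 to MCM7, whose products form the replicative helicase, 5 of 6 were lower in ICM-labelled RNA, where 6.85% of all genes were. MCM6 lay just outside the threshold (log2 fold change -0.32, adjusted p = 0.0510). All 6 log2 fold changes were negative, with a median of -0.51. MCM4 had log2 levels of 11.58, 11.70, 11.47 and 11.34 in ICM-labelled RNA and 12.85, 12.39, 12.20 and 12.00 in TE-labelled RNA, and the pools were separated (log2 fold change -0.84, SE 0.12, adjusted p = 0.0202). MCM3 had 10.52, 10.79, 11.00 and 10.88 in ICM-labelled RNA and 11.20, 11.28, 11.65 and 11.74 in TE-labelled RNA, also without overlap (-0.67, SE 0.07, adjusted p = 0.0085). MCM5, MCM7 and MCM2 followed with -0.58, -0.44 and -0.32 (adjusted p = 0.0136, 0.0389 and 0.0114). In contrast, MCM8, MCM9 and MCM10, which are not part of that ring, had log2 fold changes of 0.05, 0.09 and 0.08 and were not called. MCM3AP, named for its binding to MCM3 and a scaffold of mRNA export, was higher (0.52, adjusted p = 0.0404). Leaving out a pool pair moved MCM4 to an adjusted p of 0.0659 to 0.0778 without pool pair 2, 3 or 4, MCM5 to 0.0619 and 0.0684 and MCM2 to 0.0590 and 0.0588 without pool pair 3 or 4, and MCM3AP to 0.0558 to 0.146 with any one left out. For MCM7 no such values are given, so the stability of its call is not shown.

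The origin recognition complex was uneven across its subunits. ORC1L, the ATP-binding subunit that human cells degrade in S phase, had log2 levels of 8.94, 9.37, 9.44 and 9.25 in ICM-labelled RNA and 10.47, 10.56, 10.44 and 10.48 in TE-labelled RNA. Its pools were well separated (log2 fold change -1.24, SE 0.09, adjusted p = 0.0047), although only 1 of its 2 probes passed. ORC6L was lower too, with 2 of 3 probes passing (-0.71, SE 0.08, adjusted p = 0.0121), and had an adjusted p of 0.0547 without pool pair 3. ORC2L, ORC3L, ORC4L and ORC5L, which form the core of the complex, had positive log2 fold changes of 0.14 to 0.30, none of them called. Of 3 GINS subunits, GINS1 was lower, with 13.91, 13.82, 14.04 and 14.08 in ICM-labelled RNA and 14.22, 14.31, 14.45 and 14.63 in TE-labelled RNA (-0.44, SE 0.05, adjusted p = 0.0097). GINS3 (-0.53, adjusted p = 0.130) and GINS4 (0.07) were not called. The loading factor CDC6 (-0.12), the kinase CDC7 (-0.21) and the helicase subunit CDC45L (0.04) were not called either.

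At the replication fork, 2 of 14 genes were lower (14.3%) and 1 was higher (7.14%) in ICM-labelled RNA, against 6.85% and 8.69% of all genes. PCNA, the clamp that holds the polymerases, had log2 levels of 13.96, 14.13, 14.22 and 14.12 in ICM-labelled RNA and 15.12, 14.90, 14.97 and 14.92 in TE-labelled RNA. The pools were separated, all 4 probes of PCNA passed, and the level was 1.83-fold lower (log2 fold change -0.87, SE 0.08, adjusted p = 0.0073). Of 9 subunits of the replicative polymerases 1 was called, the polymerase delta subunit POLD3 (-0.54, SE 0.08, adjusted p = 0.0203, 2 of 3 probes), and it lost the call without pool pair 2, 3 or 4 (adjusted p = 0.0682 at the lowest). Of 4 subunits of replication factor C, which loads PCNA onto DNA, RFC2 was higher (0.27, SE 0.04, adjusted p = 0.0269) and RFC3 had -0.40 without passing (adjusted p = 0.0600). The call of RFC2 was lost with any one pool pair left out (adjusted p 0.0586 to 0.110).

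Among the mitotic kinases, PLK3, a stress-responsive relative of PLK2, was lower (-0.45, SE 0.06, adjusted p = 0.0144; 0.0589 without pool pair 2), and PLK4, which starts centriole duplication, had -0.37 without passing (adjusted p = 0.0656). PLK1, the polo-like kinase of mitosis, was near 0 (-0.02). The Aurora kinases pointed in different directions. AURKB, the kinase of the chromosomal passenger complex, had 12.33, 12.32, 12.67 and 12.18 in ICM-labelled RNA and 11.96, 11.98, 12.30 and 11.97 in TE-labelled RNA, and was higher (0.32, SE 0.04, adjusted p = 0.0123). Those ranges overlap by a little, and the call of AURKB was lost without pool pair 2 or 3 (adjusted p = 0.0611 and 0.0627) and with its 3 probes averaged (log2 fold change 0.12, adjusted p = 0.160). AURKA, the kinase of the spindle poles, lay at -0.42 (adjusted p = 0.0651). The centrosome gene PLK1S1 was lower by 0.16 on the log2 scale (adjusted p = 0.0262), a call lost with any one pool pair left out (adjusted p 0.0707 to 0.108) and with pool pair blocking (0.0517).

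Of the spindle checkpoint genes, BUB3 was lower (-0.34, SE 0.05, adjusted p = 0.0228, or 0.0977 and 0.102 without pool pair 3 or 4). BUB1, the kinase that BUB3 recruits, had 0.38 and did not pass (adjusted p = 0.174). With pool pair blocking BUB1 had 0.0261, and 0.0376 with a dye term added, in fits of single arrays that raised the calls over all probes as well. Of 17 CENP genes, 2 were higher (11.8%) and 1 lower (5.88%), shares near the 8.69% and 6.85% of all genes. CENPI, a protein of the inner kinetochore, was the member most raised in ICM-labelled RNA, with log2 levels of 10.35, 10.16, 10.82 and 10.62, against 9.45, 9.14, 9.53 and 9.51 in TE-labelled RNA. These did not overlap, and 2 of 3 probes passed (log2 fold change 1.08, SE 0.07, adjusted p = 0.0038). Its direct partner CENPK was higher by a much smaller amount (0.19, SE 0.03, adjusted p = 0.0198; 0.0579 to 0.0863 with any one pool pair left out). CENPL, another protein of the same network, was lower (-0.84, SE 0.09, adjusted p = 0.0106; 0.0628 without pool pair 4). CENPT, which links the centromere to the outer kinetochore, had -0.61 and missed the threshold (adjusted p = 0.0633).

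**Figure D4:**
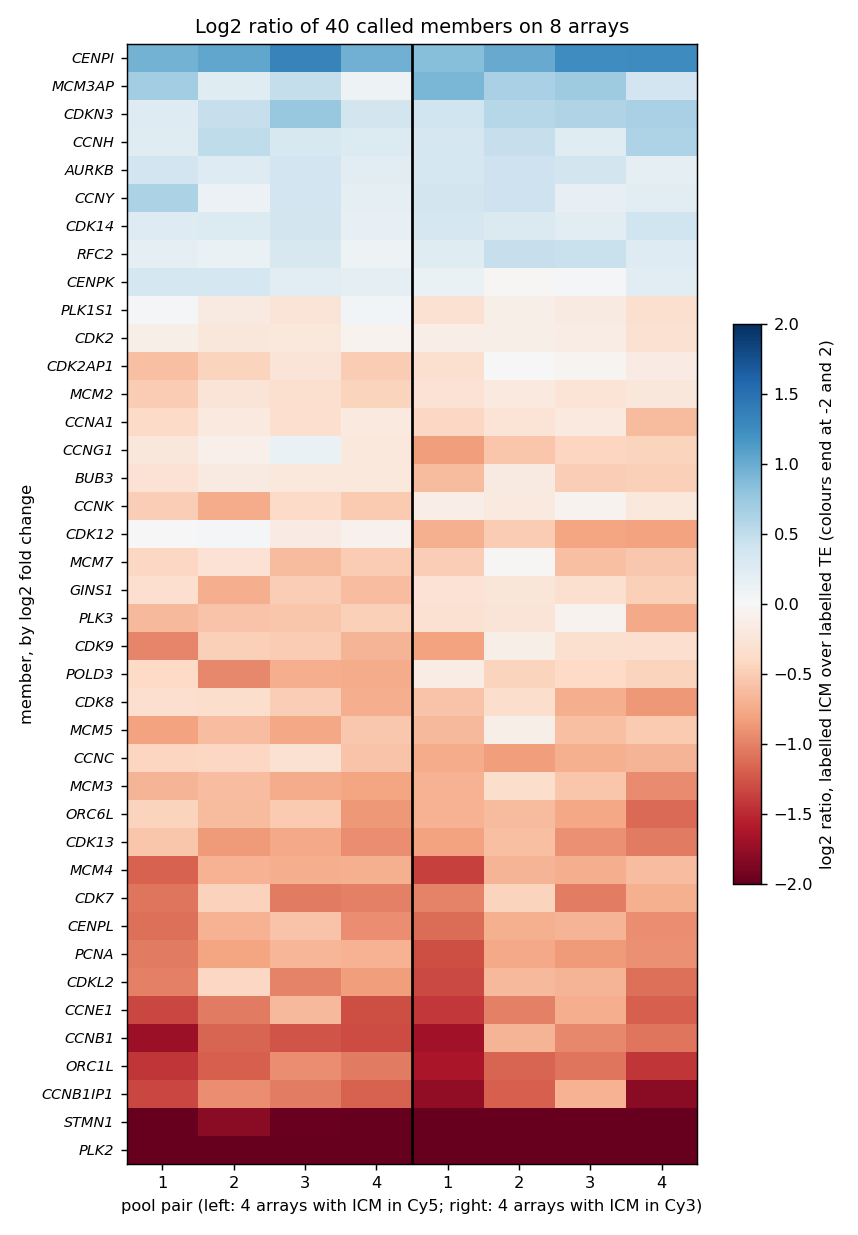
Log2 ratio of ICM-labelled RNA over TE-labelled RNA on each of the 8 arrays for the 40 called members, ordered by log2 fold change. The sign was the same on all 8 arrays for 27 of the 31 lower and 8 of the 9 higher members, which were called on these same ratios. CDK12 was near 0 on the 4 arrays with ICM in Cy5.

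The CDC and E2F genes showed no call, where 15.5% of all genes were called in either direction. For as few as 7 E2F genes, no call lies near that share. The 22 CDC genes include subunits of the anaphase-promoting complex, its activator CDC20 and the CDC25 phosphatases that activate CDKs, and their log2 fold changes lay between -0.35 and 0.19. CDC37, a cochaperone of kinases, came closest (-0.35, adjusted p = 0.0747). With pool pair blocking the adjusted p of CDC37 was 0.00526 (0.0141 with a dye term), but these fits of single arrays raised the calls over all probes as well. The 7 E2F genes, the transcription factors that switch on many S phase genes, lay between -0.30 (E2F4) and 0.10.

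Other genes of the same processes, outside the naming rule, were read as a second list. Of 110 listed genes 104 were measured, and 24 (23.1%) were lower and 1 (0.962%) higher in ICM-labelled RNA, against 6.85% and 8.69% of all genes, with a median log2 fold change of -0.11. The lower calls numbered 10 without pool pair 3 and 9 without pool pair 4. Among the 24, MAD2L2 had 2 of its 7 probes passing as higher and 2 as lower. RACGAP1, also among them, was lower on 4 of 8 arrays and higher on 4. CHEK1, the checkpoint kinase of stalled replication, had log2 levels of 11.11, 11.22, 11.14 and 11.23 in ICM-labelled RNA and 12.07, 12.22, 12.33 and 12.54 in TE-labelled RNA, clearly apart (log2 fold change -1.11, SE 0.07, adjusted p = 0.0036). GMNN, geminin, which prevents a second loading of the MCM ring, was lower (-0.48, adjusted p = 0.0056), as were FBXW7, the ubiquitin ligase subunit that marks cyclin E for destruction (-0.49, adjusted p = 0.0048), and ASF1B, a histone chaperone of replication (-0.62, adjusted p = 0.0072). The one gene that was higher, the spindle checkpoint gene MAD1L1, changed little (0.18, adjusted p = 0.0461) and lost its call with any one pool pair left out (adjusted p 0.0852 to 0.148).

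The pool pairs contributed unequally. Among the 31 lower members, pool pair 1 held the most extreme log2 ratio in 17 (54.8%), where it did so in 45.5% of all 1043 genes that were lower. The median log2 ratio of the 31 was nevertheless similar in the 4 pool pairs, at -0.59, -0.48, -0.61 and -0.63. Of the 19 lower members with several probes, all probes passed in 2 (STMN1 and PCNA) and only 1 probe passed in 13; of the 4 higher members with several probes, all passed in none and 1 probe passed in 3. No member had probes that passed in both directions.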

How the data were processed

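RNA of 4 ICM pools and 4 TE pools was compared on 8 two-color dye-swap arrays. The authors deposited raw spot intensity and local background intensity per channel, and a table of normalized log2 ratios with background subtraction, loess and quantile normalization. That table does not state its scale, centring or direction; its columns (medians -0.0257 to 0.00451) correlated with log2 of Cy5 over Cy3 at r of 0.730 to 0.856 across probes. The submitters' processing notes name limma.

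Here intensities were corrected by normexp (offset 50) and normalized by loess and Aquantile with limma 3.58.1 in R 4.3.3. The 9 to 47 spots per array marked as ignored were dropped, and loess gave control spots a weight of 0. Log2 ratios of the channel labelled ICM over that labelled TE were averaged over the 2 arrays of a pool pair and tested against 0 over 4 pool pairs with lmFit and eBayes, with p-values adjusted by Benjamini-Hochberg across 43794 probes, of which 22004 have no symbol. The control limit is the mean plus 2 SD of 153 negative control spots. Per channel, 48.2% to 65.6% of probes exceeded it. The number of arrays limits the precision, and folds of dim probes are understated. All arrays of one dye orientation share a slide, so slide and orientation cannot be told apart.

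The deviations of each array from the mean of its own dye orientation were correlated across probes, with r = 0.839, 0.656, 0.553 and 0.555 between arrays of the same replicate number and -0.548 to 0.158 for unlike numbers; the numbers were therefore taken to pair the arrays. Symbols come from the platform annotation and were updated by a RefSeq gene table of assembly ARS-UCD2.0, in which all 159 members matched. Named are up to 4 members of smallest p per role and direction past the threshold (in a role with none, the member of smallest p), the 6 of largest change in each direction, STMN1, PLK2, CCNB1 and PCNA, and up to 4 other cell cycle genes per direction; further members and smaller sets named for comparison were chosen after their values were seen. Members and lists were chosen with earlier results of these data known. The steps were tested on simulated data. Alternatives covered background correction, normalization, dim probes, the deposited table, the pool pair block, single dye orientations, probe choice, thresholds and each pool pair left out.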

Additional observations from a re-analysis of the deposited data

Results flagged for a closer look

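In 4 of 44 named genes tested, 1 of the 4 pool pairs lay far from the other 3 in its log2 ratio of ICM-labelled RNA over TE-labelled RNA. For separate genes chance alone would give about 1 in 20. The 44 genes share the same pool pairs and were mostly named for small p or large change, so this count is a description only. Such cases were not counted over all genes. Pool pair 1 held the most extreme log2 ratio in 45.5% of all 1043 genes that were lower. MCM4 had -1.273 in pool pair 1, with the others between -0.7291 and -0.6597. PCNA had -1.16 in pool pair 1 and between -0.8063 and -0.7559 in the others. STMN1 had -3.018 in pool pair 1 and between -2.126 and -1.96 in the others. For the centrosome gene PLK1S1 it was pool pair 3, with -0.2199 against -0.1475 to -0.1367.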

How the results depend on the processing

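Over 44 named genes, 748 values under the alternatives kept their sign; 601 stayed on the same side of the threshold, 130 lost it and 17 gained it. All 40 called members kept their direction, and 37 stayed called with plain subtraction, 34 with the deposited table, 34 and 30 on the arrays with ICM in Cy5 and in Cy3 alone, and 4 (STMN1, PLK2, CENPI and ORC1L) with median centring. The members numbered 31 lower and 9 higher. The counts were 3 and 1 with median centring, 48 and 14 with the pool pair as a replicate block, 51 and 14 without that block, 7 and 2 at an adjusted p of 0.01, and 6 and 1 at the study's thresholds. Leaving out a pool pair gave 9 to 29 lower and 2 to 8 higher members, and 9 to 21 lower and 0 to 1 higher other cell cycle genes. Over all probes the calls numbered 2072 to 3973 with a pool pair left out and 8135 without the block, against 4711. Apart from the 0.01 threshold, shares of all genes by direction are not given for these alternatives. Whether the larger share of lower calls holds under each of them was therefore not tested. Other cell cycle genes numbered 24 lower and 1 higher. Their lower calls were 3 with median centring, 6 at 0.01 and 4 at the study's thresholds. Their higher calls were 4 with subtraction, 5 without background correction, 7 with dim probes left out, 2 with the deposited table, 8 with the replicate block, with or without a dye term, and 8 without it, 3 on the Cy5 arrays and 0 on the Cy3 arrays, with median centring, at 0.01 and at the study's thresholds. The cause of these shifts was not tested. The median probe signal was only 1.17 to 1.41 times that of the negative controls, so calls of members near the control limit rest on weak signal.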
